A study of Mus musculus with 12 samples.

Results

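Deubiquitinases of the ubiquitin-specific (USP) and OTU families were followed in mouse macrophages exposed to monophosphoryl lipid A (MPLA), a low-toxicity derivative of lipopolysaccharide that acts through Toll-like receptor 4. The members were the protein-coding genes whose symbol starts with Usp or Otub or Otud followed by the family's numbering, with Cyld added and Usp18, which removes ISG15 rather than ubiquitin, left out. The authors' deposited tables held 55 such genes among the 20884 genes present in all 3 of them. The cells were bone marrow-derived macrophages, grown for 7 days with macrophage colony-stimulating factor (M-CSF, 10 ng/mL) and 10% serum from the marrow of C57BL/6 males aged 8 to 16 weeks. M-CSF was kept in every culture, controls included. RNA from 12 libraries was sequenced, 3 for each of 4 groups: controls without MPLA, MPLA for 4 h, MPLA for 24 h, and a harvest 3 d after priming had ended. The sources used here give neither the MPLA dose, nor the length of priming in the last group, nor whether a group's libraries represent different mice or cultures. The p-values then measure only how much the libraries vary among themselves, which may be technical variation. In RNA from whole cultures, fewer cells carrying a transcript and less transcript per cell cannot be told apart.

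Deubiquitinases cut ubiquitin from proteins or trim ubiquitin chains. In the Toll-like receptor pathway, TRAF6 and its partner enzymes build chains that hold the TAK1 and IKK kinases, and deubiquitinases such as Cyld, A20 (Tnfaip3) and several USP and OTU enzymes take these chains down or remodel them. Other members act on histones, on p53 and its ligase, on DNA repair factors, on receptors in endosomes, on mitochondria or at the proteasome.

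The proximal promoters of 5 members are shown before the values. Otud1 and Usp15 are printed because they are among the members with the largest increases at 4 h and their printed windows hold none of their own GENCODE exons. Capitals in these lines mark the CG pairs, in which the member promoters are rich. Cyld, Usp31 and Usp49 are printed because they hold a match to the binding motif of a factor activated by Toll-like receptor 4, also in capitals. Each line is the 200 bases before the RefSeq start of transcription on GRCm38.p6, 5′ to 3′ on the gene's strand.
Otud1, chr2:19657531-19657730, plus strand: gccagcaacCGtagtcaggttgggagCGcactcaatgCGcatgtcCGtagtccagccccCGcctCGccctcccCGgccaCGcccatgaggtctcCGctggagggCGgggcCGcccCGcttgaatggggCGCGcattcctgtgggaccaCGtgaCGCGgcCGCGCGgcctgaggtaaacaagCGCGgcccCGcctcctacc
Usp15, chr10:123197020-123197219, minus strand: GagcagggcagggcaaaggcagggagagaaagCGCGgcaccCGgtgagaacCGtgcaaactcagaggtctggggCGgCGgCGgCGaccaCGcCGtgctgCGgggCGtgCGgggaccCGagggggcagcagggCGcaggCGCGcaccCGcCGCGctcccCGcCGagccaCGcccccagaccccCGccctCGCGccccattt
Cyld, chr8:88696828-88697027, plus strand: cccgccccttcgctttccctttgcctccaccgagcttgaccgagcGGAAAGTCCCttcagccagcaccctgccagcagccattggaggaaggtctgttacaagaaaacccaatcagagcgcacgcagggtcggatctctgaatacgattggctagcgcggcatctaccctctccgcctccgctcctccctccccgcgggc
Usp31, chr7:121707443-121707642, minus strand: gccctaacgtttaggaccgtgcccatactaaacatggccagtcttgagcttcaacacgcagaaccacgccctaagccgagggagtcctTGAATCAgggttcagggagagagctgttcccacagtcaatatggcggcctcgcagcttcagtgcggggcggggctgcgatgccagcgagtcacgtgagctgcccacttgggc
Usp49, chr17:47630490-47630689, plus strand: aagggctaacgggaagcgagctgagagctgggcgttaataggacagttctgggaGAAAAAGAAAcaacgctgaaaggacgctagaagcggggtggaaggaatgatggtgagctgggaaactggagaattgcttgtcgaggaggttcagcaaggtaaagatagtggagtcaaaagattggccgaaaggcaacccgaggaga

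The Otud1 window held 23 CG pairs and the Usp15 window 26. RefSeq promoters, counted from 250 bases before to 50 bases after the start, were matched by symbol for 42 members, giving 46 promoters out of 32851. The member promoters had a median of 27.5 CG pairs against 7 over all promoters of the table, and a median observed-to-expected CpG ratio of 0.855 against 0.384. All promoters include those of many tissue-restricted genes, and the member promoters were not compared with those of other genes expressed in macrophages.

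The capitals in the Cyld line mark a match to the NF-kappaB motif that begins 155 bases before the start. All motifs were searched on both strands. The NF-kappaB motif occurred in 2 member promoters (4.35%), those of Cyld and Usp27x, against 8.46% of all promoters. The capitals in the Usp31 line mark an AP-1 match (TGANTCA), which begins 112 bases before the start. AP-1 matches occurred in 5 member promoters (10.87%), those of Otub2, Usp10, Usp31, Usp38 and Usp50, against 7.81% of all promoters. The Usp49 line holds the only member promoter with an interferon-response motif (GAAA, any 2 bases, GAAA, found in 2.17% of member promoters against 3.44% of all promoters), beginning 146 bases before the start, and a further match lies 38 bases after it, outside the printed window. These are matches of letters only, and binding was not measured.

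The authors' deposited tables give, for each gene and each MPLA group against the same 3 controls, a log2 fold change and adjusted p from DESeq2 and from edgeR, but no value for single libraries. All log2 fold changes and p-values below are those of the authors' deposited tables, with log2 given as MPLA over control and folds computed from the DESeq2 log2 values. A member is called changed where the DESeq2 adjusted p, which the authors adjusted over all genes of the table, was under 0.05. The standard errors (SE) are implied by the deposited DESeq2 p if that p came from a Wald test, and none can be given where p is listed as 0. The 3 comparisons share their controls and were normalized separately, so values at different times are set side by side and the differences between times were not tested.

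The DESeq2 and edgeR columns of the authors' deposited tables differed by a nearly constant amount in each comparison. For the members, DESeq2 was higher than edgeR by a median of 0.94 log2 at 4 h, 0.41 at 24 h and 0.13 at 3 d. The median of all tested genes stood at −0.04 with DESeq2 and −0.97 with edgeR at 4 h, at −0.05 and −0.46 at 24 h, and at −0.02 and −0.15 at 3 d. A member with a small DESeq2 increase at 4 h is therefore often lower by edgeR, as the plot of the 2 tools shows, and both values are given wherever the sign turns. Every member that was lower by DESeq2 in any comparison was also called lower by edgeR. The same held for all tested genes, with 5438, 5293 and 3892 lower by DESeq2 and as many by both tools. Because edgeR lay below DESeq2 by a nearly constant amount, this agreement gives no separate support to the decreases.

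**Figure D1:**
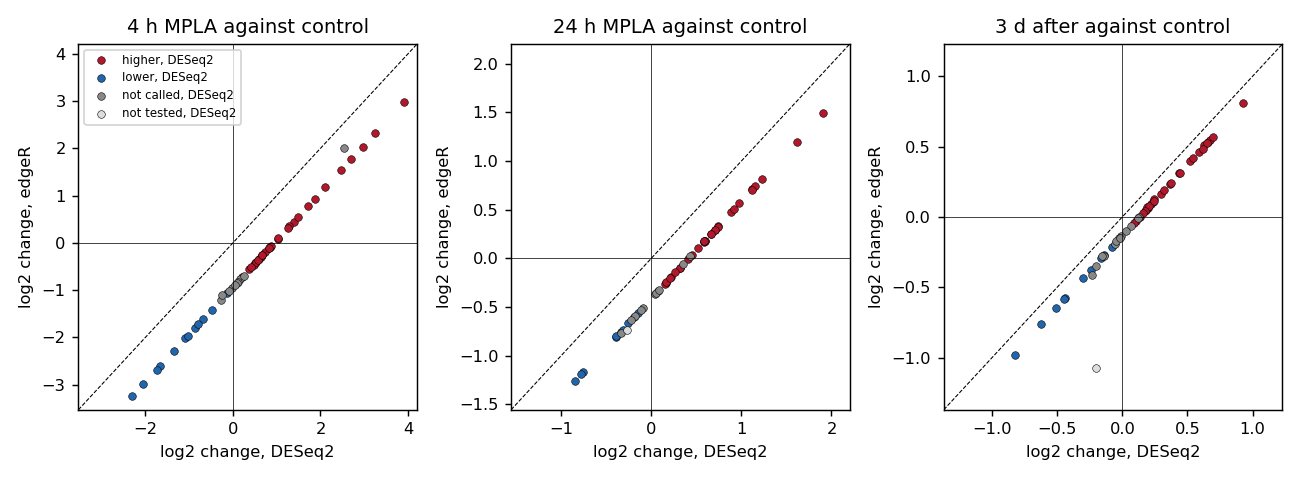
Each point is a member with reads in both groups, with the authors' DESeq2 log2 fold change on the horizontal axis and their edgeR log2 fold change on the vertical axis, 1 panel per comparison. The dashed line marks equal values, and the points lie below it by about 0.94 at 4 h, 0.41 at 24 h and 0.13 at 3 d.

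After 4 h of MPLA the family moved in both directions. Among members with reads in both groups, the largest DESeq2 changes were increases, with Otud1 highest (log2 3.91). By edgeR the largest change was a decrease, that of Usp20 (−3.23, against 2.97 for Otud1). In the authors' deposited table, 32 of 54 tested members were higher with DESeq2 and 12 were lower, so that 81.5% were called, against 62.9% of all tested genes. The higher share was 59.3% of members against 31.8% of all tested genes and 36.9% of protein-coding genes. The lower share was 22.2% against 31.0% and 36.3%. With the authors' edgeR columns 14 of 55 members were higher and 32 lower, against 13.5% and 50.1% of all genes. Both tools called 13 members higher and 12 lower, against 16.6% and 31.0% of all tested genes. The calls by at least 2-fold with DESeq2 were 15 higher and 7 lower, against backgrounds of 18.1% and 18.5%. The median of the members was 0.55 log2 with DESeq2 and −0.39 with edgeR, above the median of all tested genes by both tools. These are not separate observations, because the tools differed by a nearly constant amount.

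**Figure D2:**
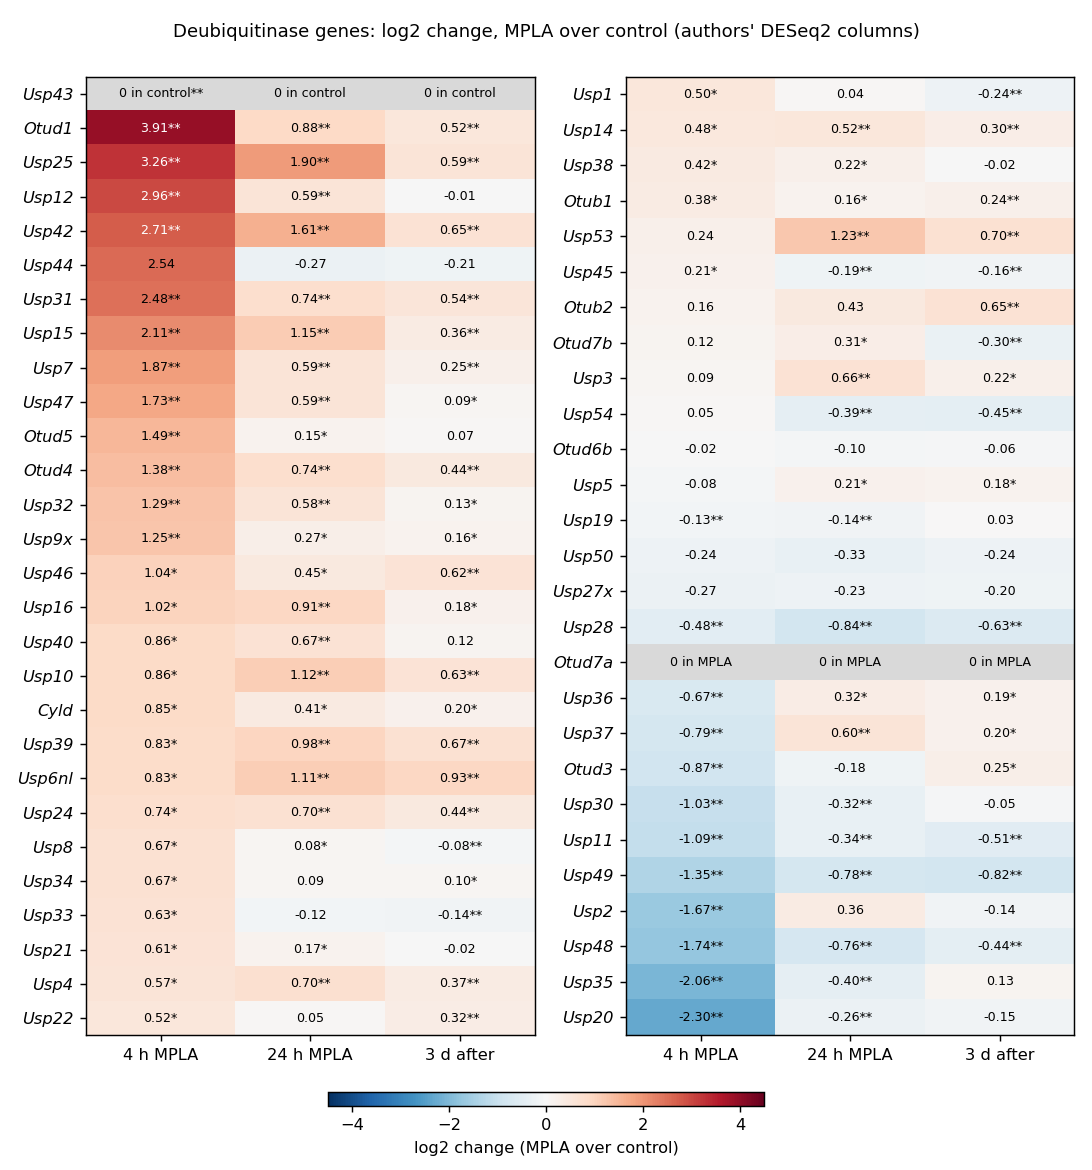
Rows are the 55 members in order of their DESeq2 log2 fold change at 4 h, split into 2 columns of panels, and the fields give the change at 4 h, 24 h and 3 d against the same controls, red for higher and blue for lower. An asterisk marks a DESeq2 call, a double asterisk a call the same way by both tools, and grey a member listed at 0 in a group, and the strongest colours lie in the 4 h fields.

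Among the 17 members with roles in inflammatory signalling, 16 were tested at 4 h, of which 11 were higher and 3 lower with DESeq2, and 6 higher and 9 lower with edgeR. Otud1, an OTU enzyme that acts on innate immune signalling proteins, rose 15.0-fold in the authors' deposited table (log2 3.91 by DESeq2, 2.97 by edgeR, both adjusted p listed as 0). Usp25, which acts on TRAF proteins, rose 9.55-fold (log2 3.26, edgeR 2.32, both adjusted p listed as 0 in the authors' deposited table). Usp31, a regulator of NF-kappaB signalling, rose 5.57-fold, and Usp15, which acts on TGF-beta receptor signalling among other pathways, rose 4.33-fold in the same table. Their edgeR changes were 1.54 and 1.18. Otud5, which trims chains from TRAF3, and Otud4, which acts on MyD88, rose by 1.49 log2 (SE 0.0429) and 1.38 log2 (SE 0.0503) with DESeq2 and by 0.55 and 0.45 with edgeR. These 6 were the members of the group that rose with both tools.

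Cyld, which cuts the chains that activate NF-kappaB, stood at 0.85 log2 with DESeq2 (SE 0.0519, adjusted p = 8.1e-60) and at −0.08 with edgeR (adjusted p = 0.0771) in the authors' deposited table for 4 h. Its direction thus depends on the tool. The same held, with calls in opposite directions by the 2 tools, for Usp21 (0.61 by DESeq2 and −0.33 by edgeR), Usp4 (0.57 and −0.37), Usp38 (0.42 and −0.52) and Otub1 (0.38 and −0.56), an inhibitor of the chain-building enzyme Ube2n. Otud7b and Otub2 were not called by DESeq2 (0.12 and 0.16) and were lower by edgeR (−0.82 and −0.76).

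Usp20, which acts on receptors and on TRAF6, fell 4.91-fold in the authors' deposited table for 4 h (log2 −2.30, SE 0.154, adjusted p = 8.79e-50), the largest decrease of any member with reads in both groups. Usp2 fell 3.18-fold (SE 0.342 on the log2 scale) and Usp11 fell 2.12-fold (SE 0.183). By edgeR these 3 stood at −3.23, −2.61 and −2.02.

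The deubiquitinases that act on p53, the cell cycle and DNA repair split at 4 h, with 6 of 9 higher and 3 lower by DESeq2, and 2 higher and 6 lower by edgeR. Usp7, which acts on p53 and its ligase Mdm2, rose 3.67-fold in the authors' deposited table. Usp47, a deubiquitinase that regulates base excision repair, rose 3.31-fold there. The edgeR changes of these 2 were 0.94 and 0.79. Usp48 fell 3.34-fold (log2 −1.74, SE 0.0661, adjusted p = 5.37e-152). Usp37 and Usp28, which act on cell cycle and checkpoint proteins, fell by 0.79 (SE 0.131) and 0.48 log2 (SE 0.116) in that table. Usp10, Usp24, Usp1 and Usp45 were higher by DESeq2 (0.86, 0.74, 0.50 and 0.21) and stood below 0 by edgeR (−0.08, −0.19, −0.44 and −0.73), with edgeR calls for the last 3.

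Of the 8 chromatin and nucleolar members, 3 were higher and 2 lower at 4 h by DESeq2, and 2 higher and 5 lower by edgeR. Usp42 rose 6.54-fold in the authors' deposited table (log2 2.71, SE 0.0871, edgeR 1.77). Usp49, an enzyme of histone H2B, fell 2.55-fold (SE 0.206) and Usp36, a nucleolar enzyme, fell 1.6-fold (SE 0.124), both also by edgeR (−2.28 and −1.61). Usp16 and Usp22, which act on histone ubiquitin, were higher by DESeq2 (1.02 and 0.52) and stood at 0.08 and −0.41 by edgeR. Usp44, singled out after its values were seen, stood at 2.54 log2 with an SE of 1.19 and an adjusted p of 0.0513 in the authors' deposited table, and edgeR called it at an adjusted p of 0.0451. Its error was larger than that of any chromatin member called here.

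Usp12 and Usp46, close relatives that work bound to the protein UAF1 (Wdr48), were both higher at 4 h by DESeq2. Usp12 rose 7.79-fold in the authors' deposited table, with 2.96 log2 by DESeq2 and 2.03 by edgeR and adjusted p listed as 0. Usp46 stood at 1.04 log2 by DESeq2 (SE 0.121) and at 0.10 by edgeR, where it was not called (adjusted p = 0.283). The relatives thus differed in size by both tools, although the difference itself was not tested.

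The 6 membrane and organelle members gave 3 higher and 3 lower by DESeq2, and 1 higher and 5 lower by edgeR. Usp32 rose 2.45-fold in the authors' deposited table for 4 h (SE 0.0608, edgeR 0.36). Usp35 fell 4.16-fold (SE 0.168) and Usp30, an enzyme of the mitochondrial outer membrane that opposes mitophagy, fell 2.04-fold (SE 0.1), with edgeR at −2.99 and −1.97. Usp19, anchored in the endoplasmic reticulum, stood at −0.13 by DESeq2 and −1.07 by edgeR. Usp8, which spares receptors from degradation in endosomes, and Usp33 were called in opposite directions by the 2 tools (0.67 and −0.26, 0.63 and −0.30).

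Of the proteasome and free-chain enzymes, Usp14 stood at 0.48 by DESeq2 and −0.46 by edgeR in the authors' deposited table for 4 h, and Usp5, which takes free chains apart, at −0.08 and −1.02. Among 5 members that lack deubiquitinase activity or were long listed as lacking it, none was called the same way by both tools at 4 h. Usp39, a splicing factor, and Usp6nl, a GTPase-activating protein of Rab proteins that carries the family's name only, stood at 0.83 and 0.83 by DESeq2 and at −0.10 and −0.12 by edgeR. Usp54 was not called by DESeq2 (0.05) and was lower by edgeR (−0.89). Of the 6 remaining members, Usp9x rose 2.38-fold by DESeq2 (SE 0.0412, edgeR 0.31) and Otud3 fell 1.83-fold (SE 0.182, edgeR −1.81). Usp40 and Usp34 were higher by DESeq2 (0.86 and 0.67) and stood at −0.07 and −0.27 by edgeR.

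Members at the limit of detection were few. Usp43 was listed at 0 in the controls in all 3 of the authors' deposited tables, and was called higher at 4 h (DESeq2 adjusted p = 0.00366, edgeR adjusted p = 0.000409), for which no fold is given. At 24 h and 3 d it was not tested by DESeq2. Otud7a was listed at 0 in the MPLA group at all 3 times and was tested by DESeq2 at none of them. Usp44 was likewise not tested by DESeq2 at 24 h and 3 d. Usp50, Usp27x and Otud6b, named here after their values were seen and not for low detection, were called by DESeq2 in no comparison. Their log2 changes lay between −0.33 and −0.02 in the authors' deposited tables. At 4 h their SEs were 0.994, 0.21 and 0.0709. By edgeR, Usp50 was also called at no time, whereas Usp27x and Otud6b were lower at all 3 times.

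**Figure D3:**
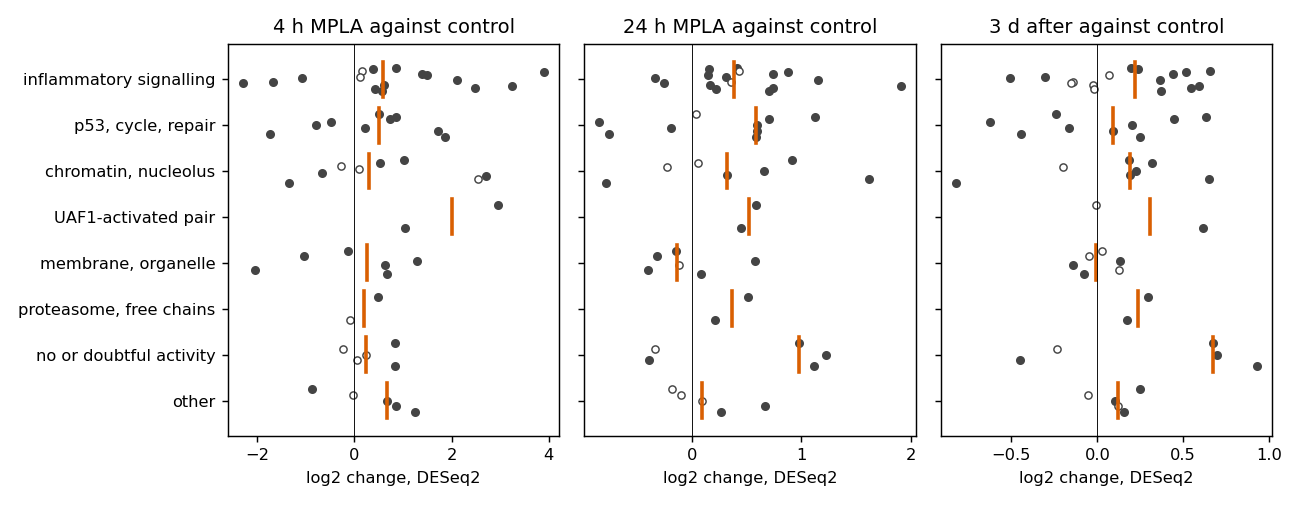
Each point is a tested member with reads in both groups, placed by its role group and its DESeq2 log2 fold change in the authors' table, filled where called and open where not, and the bar is the group's median. The signalling group at 4 h spans the widest range, from −2.30 for Usp20 to 3.91 for Otud1.

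After 24 h of MPLA the median size of the members' changes, regardless of sign, was 0.42 log2 by DESeq2, against 0.84 at 4 h. Over all tested genes this size also fell, from 0.95 at 4 h to 0.68 at 24 h, and lay above that of the members both times. Fewer members were changed by 2-fold at 24 h than at 4 h. In the authors' deposited table, 32 of 52 tested members were higher and 10 lower by DESeq2, or 80.8% called against 64.6% of all tested genes. The higher share was 61.5% against 32.4% of all tested genes and 37.7% of protein-coding genes, and the lower share 19.2% against 32.2% and 36.0%. The edgeR columns gave 21 higher and 25 lower of 55, against 16.2% and 41.8% of all genes. Both tools called 21 members higher and 10 lower, against 20.8% and 32.2%. With at least 2-fold, 6 members were higher and 0 lower, against 12.8% and 16.4%. The median of the members was 0.32 by DESeq2 and −0.10 by edgeR.

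The 6 members that were at least 2-fold higher at 24 h were Usp25, Usp42, Usp53, Usp15, Usp10 and Usp6nl, and edgeR also called each of them higher. Usp25 rose 3.74-fold in the authors' deposited table (log2 1.90, edgeR 1.49, adjusted p listed as 0). Usp42 rose 3.06-fold (SE 0.0908 on the log2 scale) and Usp15 rose 2.23-fold (SE 0.0427). Usp10, a p53 deubiquitinase that binds the stress granule protein G3bp1, rose 2.17-fold (SE 0.081). Usp53, a tight junction protein of the family, rose 2.34-fold (SE 0.135), where it had not been called at 4 h by DESeq2 (0.24, adjusted p = 0.246) and had been lower by edgeR (−0.70). Usp39 and Usp16, with 0.98 and 0.91 log2, also rose by both tools.

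Otud1, with the largest increase of the members with reads in both groups at 4 h, stood at 0.88 log2 at 24 h in the authors' deposited table (SE 0.0932, edgeR 0.47). The signalling group as a whole gave 12 of 16 higher and 2 lower by DESeq2, and 6 higher and 7 lower by edgeR. Otud4, Usp31 and Usp4 rose by 0.74, 0.74 and 0.70 log2, with edgeR at 0.33, 0.33 and 0.29. Cyld stood at 0.41 by DESeq2 (SE 0.0454, adjusted p = 4.62e-19) and at −0.0029 by edgeR (adjusted p = 0.962), again without a call by edgeR. Otud5, 2.8-fold higher at 4 h, was at 0.15 by DESeq2 and −0.26 by edgeR, each called. Usp2 had fallen at 4 h and was at 0.36 by DESeq2 and −0.054 by edgeR at 24 h, not called by either tool (DESeq2 adjusted p = 0.111). Calls in opposite directions by the 2 tools were also made for Usp38 (0.22 by DESeq2 and −0.19 by edgeR), Usp21 (0.17 and −0.25) and Otub1 (0.16 and −0.25).

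The 10 members that fell at 24 h by DESeq2 were also called lower by edgeR, as was every tested gene lower by DESeq2. The DESeq2 changes of these members were under 2-fold. Usp28 fell 1.79-fold (log2 −0.84, SE 0.106), Usp49 1.72-fold (SE 0.162) and Usp48 1.69-fold (SE 0.0494) by DESeq2 in the authors' deposited table, and edgeR gave −1.26, −1.19 and −1.17 log2. Usp35, Usp54, Usp11, Usp30 and Usp20 fell by 0.40, 0.39, 0.34, 0.32 and 0.26 log2, and Usp45 and Usp19 by 0.19 and 0.14. Of these, Usp20 and Usp35 had been the lowest members with reads in both groups at 4 h, and at 24 h they stood at −0.26 and −0.40 by DESeq2 and at −0.67 and −0.81 by edgeR.

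Usp37, a deubiquitinase of cyclin A, was called in opposite directions at the 2 times by both tools. In the authors' deposited tables it fell by 0.79 log2 at 4 h (adjusted p = 5.02e-09, edgeR −1.72) and rose by 0.60 log2 at 24 h (SE 0.0857, adjusted p = 9.54e-12, edgeR 0.18 with adjusted p = 0.00583). At 3 d it stood at 0.20 by DESeq2 (adjusted p = 0.0132) and 0.08 by edgeR (adjusted p = 0.303). Usp36 was lower at 4 h (−0.67) and higher at 24 h by DESeq2 (0.32, SE 0.0911), but the edgeR value at 24 h was −0.09 and not called. Usp3, a histone deubiquitinase, was not called by DESeq2 at 4 h (0.09, adjusted p = 0.29) and rose by 0.66 log2 at 24 h, with edgeR at −0.85 and 0.25.

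Among the role groups, the chromatin and nucleolar members gave 4 of 7 tested higher and 1 lower at 24 h by DESeq2, and the p53, cycle and repair group 5 of 9 higher and 3 lower. By edgeR these groups gave 3 higher and 3 lower, and 5 higher and 4 lower. Usp12 and Usp46 were at 0.59 and 0.45 log2 in the authors' deposited table, of which Usp12 was also called higher by edgeR (0.18). The membrane and organelle group gave 2 higher and 3 lower by DESeq2, and 1 higher and 5 lower by edgeR, with Usp32 at 0.58 and Usp35 at −0.40. Usp14 was higher by both tools (0.52 and 0.10) and Usp5 was called in opposite directions (0.21 and −0.20), as were Usp9x (0.27 and −0.15) and Usp8 (0.08 and −0.33). Usp34, Usp22 and Usp1 were not called by DESeq2 (0.09, 0.05 and 0.04) and were lower by edgeR (−0.32, −0.36 and −0.37).

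**Figure D4:**
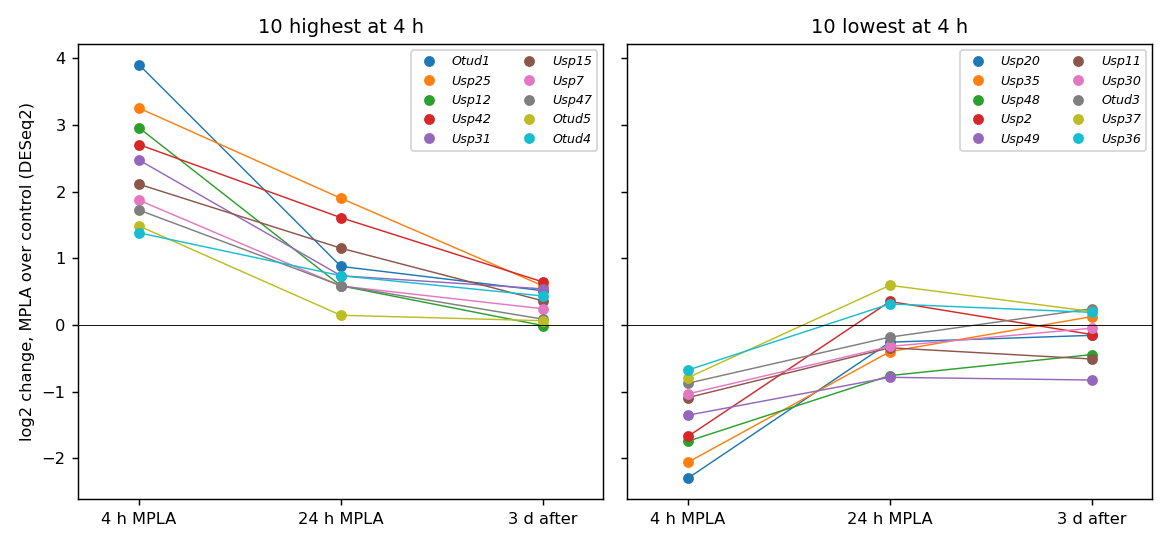
Each line joins the DESeq2 log2 fold changes of 1 named member at 4 h, 24 h and 3 d against the same 3 controls, without error bars. Otud1, Usp25 and Usp12 start at 3.91, 3.26 and 2.96 at 4 h and lie at 0.59 or below at 3 d, and Usp20 goes from −2.30 to −0.15.

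At 3 d after priming none of the 52 members tested by DESeq2 was called with a DESeq2 change of 2-fold or more, while more than 5% of all tested genes were in each direction. In the authors' deposited table, 29 of 52 tested members were higher and 10 lower by DESeq2, or 75% called against 55.2% of all tested genes. The higher share was 55.8% against 29.5% of all tested genes and 33.7% of protein-coding genes, and the lower share 19.2% against 25.8% and 27.7%. The edgeR columns gave 18 higher and 18 lower of 55, against 15.5% and 27.7% of all genes. Both tools called 18 members higher and 10 lower, against 22.5% and 25.8%. At least 2-fold changes were 0 higher and 0 lower, against 6.38% and 5.2%. The median of the members was 0.14 by DESeq2 and 0.014 by edgeR.

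The highest members at 3 d were 3 of those with no or doubtful catalysis. Usp6nl rose 1.9-fold (log2 0.93, SE 0.0849), Usp53 1.62-fold (SE 0.118) and Usp39 1.59-fold (SE 0.0603) in the authors' deposited table, and edgeR gave 0.81, 0.57 and 0.54. Otub2 followed with 0.65 log2 (SE 0.168, adjusted p = 0.000277, edgeR 0.53), after DESeq2 had called it neither at 4 h (adjusted p = 0.633) nor at 24 h (adjusted p = 0.078). Usp42, Usp10 and Usp46 rose by 0.65, 0.63 and 0.62 log2, and all were called higher by edgeR too. For Usp46 the value at 3 d lay between those at 4 h and 24 h by DESeq2, and above both by edgeR (0.10, 0.03 and 0.48).

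The 10 called members with the highest DESeq2 change at 4 h and reads in both groups were followed to 3 d. Both tools called 7 of them higher at 3 d, namely Otud1, Usp25, Usp42, Usp31, Usp15, Usp7 and Otud4. Both tools called 18 of all 52 tested members higher at 3 d, and 22.5% of all tested genes. The 2 comparisons share their controls, and the share among other genes highest at 4 h was not counted. Usp25, Usp31 and Otud1 rose by 0.59 (SE 0.0391), 0.54 (SE 0.0637) and 0.52 log2 (SE 0.0807) in the authors' deposited table, with edgeR at 0.46, 0.42 and 0.39. Usp15 and Usp7 rose by 0.36 and 0.25 log2. Usp12 was at −0.0063 (SE 0.0445, adjusted p = 0.919), and edgeR called it lower (−0.14), while Otud5 was not called by either tool (0.07 and −0.06) and Usp47 by DESeq2 only (0.09 and −0.04). Cyld was at 0.20 by DESeq2 (SE 0.0423) and 0.07 by edgeR (adjusted p = 0.162).

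Among the decreases at 3 d, Usp49 fell 1.77-fold (log2 −0.82, SE 0.124), Usp28 1.54-fold (SE 0.0819) and Usp11 1.42-fold (SE 0.106) in the authors' deposited table. Usp54 and Usp48 fell by 0.45 and 0.44 log2. Otud7b, an OTU enzyme of the TRAF3 branch of NF-kappaB, fell by 0.30 log2 (SE 0.0575, adjusted p = 4.77e-07, edgeR −0.43), whereas at 24 h it was higher by DESeq2 (0.31) and lower by edgeR (−0.10). Usp1, which acts on the DNA repair proteins FANCD2 and PCNA, fell by 0.24 log2 (SE 0.0559), having been higher by DESeq2 at 4 h (0.50) and lower by edgeR (−0.44). Usp45, Usp33 and Usp8 fell by 0.16, 0.14 and 0.08 log2. Of the members at least 2-fold lower at 4 h by DESeq2, Usp20, Usp35, Usp2 and Usp30 were not called by it at 3 d (−0.15, 0.13, −0.14 and −0.05). There edgeR called Usp20 and Usp30 lower (−0.28 and −0.17). The sign turned between the tools for Usp40 (0.12 by DESeq2 and −0.010 by edgeR), Usp34 (0.10 and −0.028) and Usp19 (0.03 and −0.10).

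The authors' tables also hold calls by baySeq, which were counted together with those of DESeq2 and edgeR. All 3 methods called 13 members higher and 12 lower at 4 h, against 16.6% and 30.9% of all tested genes. At 24 h they called 21 higher and 10 lower, against 20.8% and 32.0%, and at 3 d 14 higher and 1 lower, against 17.4% and 7.19%. The counts at 4 h and 24 h were those of DESeq2 with edgeR, and at 3 d 9 of the 10 decreases lacked a call by baySeq. Usp28, Usp11, Usp54 and Usp48 were among those that lacked it. The decrease that baySeq did call was that of Usp49, whose overlap with Gm20517 is given below.

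Partners of the members were counted from a list of 14. By DESeq2, 10 were higher and 1 lower at 4 h, and 13 higher and 0 lower at 24 h. At 3 d, 10 of 13 tested were higher and 0 lower. The edgeR counts were 4 and 9, 6 and 4, and 8 and 3. Of all tested genes, DESeq2 called 31.8% higher and 31.0% lower at 4 h. The DESeq2 shares were 32.4% and 32.2% at 24 h, and 29.5% and 25.8% at 3 d. By edgeR the shares of all genes were 13.5% and 50.1%, 16.2% and 41.8%, and 15.5% and 27.7%. The medians of the list were 0.55, 0.45 and 0.26 log2 by DESeq2 and −0.39, 0.03 and 0.13 by edgeR. Those of all tested genes were −0.04, −0.05 and −0.02 by DESeq2 and −0.97, −0.46 and −0.15 by edgeR. Wdr48, the UAF1 subunit that activates Usp12, Usp46 and Usp1, stood at 0.92, 0.30 and 0.13 log2 by DESeq2 at 4 h, 24 h and 3 d in the authors' deposited tables, and at −0.018, −0.11 and −0.0032 by edgeR. Phlpp1, a phosphatase on which Usp12 and Usp46 act, rose by 2.48, 0.75 and 1.45 log2, with edgeR at 1.54, 0.34 and 1.33. Spata2, which bridges Cyld to linear ubiquitin ligases, stood at 0.21, 0.41 and 0.24 by DESeq2 and at −0.73, −0.00047 and 0.11 by edgeR. Traf3, a substrate of Otud5 and Usp25, fell by 0.63 log2 at 4 h and rose by 1.12 at 24 h and 1.27 at 3 d, by both tools. Stam2, an endosomal partner of Usp8, rose by 1.15, 1.05 and 0.33 log2 in the authors' deposited tables, also by both tools. Hgs, the partner of Stam2, stood at 0.36, 0.92 and 0.40 by DESeq2 and at −0.57, 0.50 and 0.27 by edgeR. Atxn7, of the complex that holds Usp22, stood at 1.30, 0.31 and −0.05 by DESeq2 and at 0.36, −0.10 and −0.18 by edgeR. G3bp1, the partner of Usp10, stood at 0.59, 0.17 and 0.50 by DESeq2 and at −0.34, −0.25 and 0.37 by edgeR. Wdr20rt was listed at 0 in the controls at all 3 times and was called higher at 4 h and 24 h.

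Of 29 deubiquitinases and relatives outside the membership rule, some of which do not cut ubiquitin, 12 were higher and 12 lower at 4 h by DESeq2. The DESeq2 counts were 16 and 8 at 24 h, and 10 and 8 at 3 d. With edgeR they were 7 and 21, 10 and 16, and 8 and 14. The DESeq2 background was 31.8% and 31.0%, 32.4% and 32.2%, and 29.5% and 25.8% of all tested genes. The edgeR background was 13.5% and 50.1%, 16.2% and 41.8%, and 15.5% and 27.7% of all genes. Usp18, the ISG15-specific relative, rose by 7.07, 6.27 and 3.54 log2 in the authors' deposited tables, and Tnfaip3 (A20) by 5.75, 3.18 and 1.79, so both lay above every member with reads in both groups at each time. Zufsp (Zup1), a deubiquitinase of genome maintenance, rose by 4.55, 2.53 and 0.86 log2. The decreases were led by Fam105a (Otulinl), a catalytically inactive relative of Otulin, with −2.70, −1.60 and −0.91. Fam188b (Mindy4) and Fam63a (Mindy1), of the MINDY family, followed at 4 h with −2.63 and −1.82 and at 24 h with −1.52 and −1.19, and at 3 d Fam63a and Pan2, a deadenylase subunit with an inactive USP domain, stood at −0.85 and −0.48. Uchl1 was among the 3 highest at 3 d, with 0.95 log2. Otulin itself, which cuts linear chains, fell by 0.35 and 0.34 log2 at 4 h and 24 h and was at −0.04 at 3 d, not called by DESeq2.

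The enzymes that build and bind the chains gave 19 of 24 higher and 2 lower at 4 h by DESeq2. They gave 16 and 5 at 24 h, and 12 and 3 at 3 d. With edgeR the counts were 10 and 12, 9 and 10, and 9 and 8. The DESeq2 background was again 31.8% and 31.0%, 32.4% and 32.2%, and 29.5% and 25.8%. The edgeR background was 13.5% and 50.1%, 16.2% and 41.8%, and 15.5% and 27.7%. Ripk2, the kinase of NOD signalling, rose by 5.85, 2.82 and 1.39 log2 in the authors' deposited tables, and the ligase Peli1 by 4.55, 2.53 and 0.70. Birc3 rose by 3.02, 2.09 and 0.93 log2, while Peli2, a relative of Peli1, fell (−3.40, −3.64 and −1.72), all by both tools. Peli3 fell at 4 h and 24 h (−2.62 and −1.31) by both tools. Tnip1, an A20-binding protein, stood at 2.15 at 24 h and 1.62 at 3 d, and Traf2 at 0.98 at 3 d. The other lowest called genes were Optn at 24 h (−0.27) and Traf6 and Itch at 3 d (−0.30 and −0.09). Ube2n, the chain-building enzyme that Otub1 inhibits, rose by 1.24 and 0.84 log2 at 4 h and 24 h by both tools and stood at 0.13 at 3 d by DESeq2 (edgeR −0.0043).

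Several members share transcribed sequence with other genes in the GENCODE annotation of GRCm38, and the sources used here do not say whether the authors' counting used strand. Usp49 (chr17:47630690-47686738) overlaps Gm20517 on the same strand over 51.2% of its exonic bases, and its decrease cannot be assigned to 1 of them. Exons opposite another gene made up 26.0% of Usp14 (Thoc1), 24.4% of Usp33, 20.5% of Usp38, 12.8% of Usp43 and 11.6% of Usp34 (Ahsa2). Usp1 shares 21.4% of its 50-base windows with Gm5841. Otud1 (chr2:19657752-19660583), Usp25 (chr16:77013706-77116780) and Usp20 (chr2:30982279-31023586) shared no exonic base and no such window with another gene.

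All 10 macrophage markers examined were listed and tested in each of the authors' deposited tables, with 6 higher and 3 lower at 4 h, 4 and 6 at 24 h, and 6 and 4 at 3 d by DESeq2, and 3 and 7, 3 and 7, and 5 and 4 by edgeR. Csf1r, the M-CSF receptor, fell by 1.01, 1.52 and 0.54 log2 at 4 h, 24 h and 3 d, and Adgre1 (F4/80) rose by 1.22, 2.15 and 1.17, each by both tools. Markers of other cells were counted by DESeq2 at 4 h, 24 h and 3 d. Of 6 B cell markers 5, 3 and 2 were tested, with 0 higher and 1 lower, 0 and 2, and 1 and 1. Among them Ighm stood at −1.75, −8.98 and −6.42 log2 and Cd79b at −0.58, −1.54 and 0.47. Of 9 neutrophil markers 4, 3 and 3 were tested, with none called at 4 h and 1 higher at each later time (Camp, 3.49 and 1.43). Of 8 T and NK cell markers 2, 2 and 1 were tested, with 1 lower at 4 h, 2 lower at 24 h and 1 higher at 3 d, and Cd4 stood at −0.91, −1.35 and 1.01. Of 6 dendritic cell markers 5, 3 and 3 were tested, with 3 higher and 0 lower, 1 and 1, and 0 and 1. Among them Xcr1 stood at 3.93, 3.08 and 0.18. By edgeR the dendritic cell counts were 1 and 0, 1 and 2, and 0 and 2. Zbtb46 was higher at 4 h by DESeq2 only (1.19, edgeR 0.27 with adjusted p = 0.396) and lower at 24 h (−1.50, edgeR −1.99). Clec9a was higher at 4 h by DESeq2 only (1.49, edgeR 0.57 with adjusted p = 0.0641) and lower at 3 d (−1.79, edgeR −2.40). Of 6 stromal markers 5, 4 and 3 were tested, with 2, 1 and 1 higher and none lower, and Dcn, listed at 0 in the controls, was called higher each time. Of 6 erythroid and megakaryocyte markers 3, 3 and 2 were tested, with 1 higher at 4 h and 1 lower at each later time (Pf4, 0.44, −1.33 and −0.92, with edgeR at −0.49 at 4 h). These markers were named after their values were seen, and their part in the members' values was not tested. Without levels in the authors' tables, the share of such cells cannot be given. Set against the unscaled ratios, the edgeR columns correspond to scaling ratios of MPLA over control of 0.860, 0.935 and 2.32 at 4 h, 24 h and 3 d. For the DESeq2 columns these were 0.449, 0.702 and 2.12. They equal ratios of total depth only if no other factor entered the scaling, which the sources used here do not say.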

How the data were processed

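The 12 RNA-seq libraries of mouse macrophages were prepared with a stranded polyA kit, per the labels' protocols. Versions are missing from the submitters' processing notes, which list the authors' tools as DESeq2, DESeq, edgeR, HTSeq, TopHat2 and bcl2fastq and the build as mm10. Per the file headers, the authors deposited for each MPLA group against the shared controls log2 fold changes, p-values and adjusted p-values from DESeq2 and edgeR, an unscaled log2 ratio, and baySeq scores. The authors' deposited tables hold no counts, so depth per library is unknown and the planned count tests could not be run. The tables list 21893, 21923 and 23248 genes at 4 h, 24 h and 3 d, of which 17523, 16442 and 15111 have an adjusted p from the authors' DESeq2 step. A missing adjusted p was kept as not tested, which left out 1, 3 and 3 members.

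The deposited sign is control over MPLA and was turned here, with the direction settled from the order of groups and from genes that lipid A induces. Calls used the authors' deposited DESeq2 adjusted p under 0.05 over all genes of a table. The SE was computed as the absolute log2 fold change divided by the normal quantile of the p-value, assuming a Wald test. Calls from the authors' edgeR columns, with 3 methods together, with a 2-fold minimum, without the filter on missing values and at 0.01 were the alternatives. Scripts were run in Python 3.11.15 with pandas 2.3.3 and scipy 1.17.1, and the calling step was tested on simulated data. Genes named were, in each comparison, the 10 highest and 10 lowest called members with reads in both groups, Cyld, members listed at 0, the extremes of each role group, members whose sign turns between tools or that were called in opposite directions at different times, and of each pathway list the 3 highest and 3 lowest called genes, with Usp18, Tnfaip3, Otulin and the partners of members named beside them. The members, role groups and lists were chosen with earlier results of these data known. Promoters came from RefSeq (GRCm38.p6), gene models from GENCODE (GRCm38), and no motif was sought outside the promoter window. The list of genes that supply ubiquitin is not reported here.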

Additional observations from a re-analysis of the deposited data

How the results depend on the processing

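The counts moved with the tool and with a minimum fold. With edgeR, 14 members were higher and 32 lower at 4 h, 21 and 25 at 24 h, and 18 and 18 at 3 d. With at least a 2-fold change the counts were 15 and 7, 6 and 0, and 0 and 0. With calls by DESeq2, edgeR and baySeq together they were 13 higher at 4 h, 21 higher at 24 h, and 14 higher and 1 lower at 3 d. The members' median was −0.39, −0.10 and 0.014 with edgeR and −0.63, −0.20 and 1.23 in the unscaled ratio, which carries the depth of the libraries. Relative to the median of all tested genes, neither tool's median changed sign. Subtracting each tool's own median removes the nearly constant difference between the tools, so these are not separate checks. Without the filter on missing values and at a threshold of 0.01 the counts stayed within 1.5 times the reported ones.

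Single members turned sign with edgeR, against a positive DESeq2 value, in 41 values over the 3 comparisons. At 4 h these were Cyld −0.085, Otub1 −0.56, Otub2 −0.76, Otud7b −0.82, Usp1 −0.44, Usp10 −0.081, Usp14 −0.46, Usp21 −0.33, Usp22 −0.41, Usp24 −0.19, Usp3 −0.85, Usp33 −0.30, Usp34 −0.27, Usp38 −0.52, Usp39 −0.10, Usp4 −0.37, Usp40 −0.075, Usp45 −0.73, Usp53 −0.70, Usp54 −0.89, Usp6nl −0.12 and Usp8 −0.26. At 24 h they were Cyld −0.0029, Otub1 −0.25, Otud5 −0.26, Otud7b −0.10, Usp1 −0.37, Usp2 −0.054, Usp21 −0.25, Usp22 −0.36, Usp34 −0.32, Usp36 −0.095, Usp38 −0.19, Usp5 −0.20, Usp8 −0.33 and Usp9x −0.15. At 3 d they were Otud5 −0.064, Usp19 −0.10, Usp34 −0.028, Usp40 −0.010 and Usp47 −0.041.

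No paired analysis was possible because the tables hold no values for single libraries, and for the same reason fits that leave out each library in turn were not run. Whether 1 library carries any change is therefore unknown here. The difference between the tools follows from how each was scaled, and which scaling is nearer to transcript per cell was not tested.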

Other observations

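A small set of genes matched the naming rule in only some of the authors' deposited tables and is not counted among the 55 members. Usp9y, on the Y chromosome, was listed only at 4 h, at 0 in the controls, with a DESeq2 adjusted p of 0.0841 in the authors' deposited table. Usp13, Usp51 and Otud6a were listed only at 3 d, at 0 in the controls, and DESeq2 tested none of them. Their edgeR adjusted p values were 0.258, 0.356 and 0.505.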
